A study of Mus musculus with 34 samples.

Results

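The mRNAs of the cytosolic ribosomal proteins and of the translation elongation factors were followed across 6 groups of MOSJ-Dkk1 cultures. Members were chosen by symbol: every listed gene named as a ribosomal protein of the large or the small subunit, with Rplp0, Rplp1, Rplp2, Rpsa, Fau, Eef1a1, Eef1b2, Eef1g, Eef2, Tpt1 and Gas5, and without pseudogene copies. Of 16576 genes listed, 85 met this rule. They comprised 48 of the large subunit, 31 of the small subunit with Rpsa and Fau, 4 elongation factors, and Tpt1 and Gas5 as 2 more mRNAs of the same translational class. Eef1d, a further elongation factor subunit, was not analysed here. MOSJ-Dkk1 is a red fluorescent murine osteochondral sarcoma line that carries human Dkk-1, a secreted Wnt inhibitor, under the cytomegalovirus promoter of a pLenti vector, and the cells of all 6 groups carried it. Cultures received no morpholino (NT, vehicle), a scrambled control morpholino (scrMo) or a morpholino directed at Dkk-1 (DkkMo), both at 5 µM from the day after seeding per the labels, while a figure legend of the study gives another dose. Log phase was reached after 6 days with fresh medium every 2 days. Cultures under nutritional stress had stood 48 h at confluence and 4 days without fresh medium. The labels put the collection of cells at a week of treatment. Each group held 3 libraries. In the group of NT cultures under nutritional stress, 2 of the 3 libraries carried the same number in their titles. No source states that the libraries of a group came from separate cultures, so p-values measure the spread between these libraries, which may be technical. The human Dkk-1 transcript was not analysed here.

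The ribosome is built from a large subunit, which forms peptide bonds, and a small subunit, which reads the mRNA. Each subunit holds ribosomal RNA and many small proteins, most of which are needed in equal numbers. The mRNAs of these proteins, of the elongation factors and of some other translation genes start with a run of pyrimidines, the terminal oligopyrimidine (TOP) tract. Through this tract their translation and stability respond to nutrients by way of mTORC1 and the RNA-binding protein Larp1. In growing cells TOP mRNAs are among the most abundant mRNAs, and their translation is known to drop when amino acids or growth factors run out. What was measured here was poly(A)-selected mRNA abundance, not translation.

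The values were deposited on a variance-stabilised log2 scale and could be turned back into whole reads, of which each library held 25875666 to 44779668 on the listed genes. A normalized count is the number of reads divided by the size factor of the library. Changes are differences of group means on the deposited log2 scale with their SE, from limma across 16562 genes, and a gene passed the test at an adjusted p below 0.05. All 85 members had reads in every library, and none was removed by the filter on low values. The osteoblast and mesenchymal markers Col1a1, Col1a2, Sparc, Runx2 and Vim and the chondrocyte regulator Sox9 were high in all libraries, whereas Alpl, Col2a1, the leukocyte gene Ptprc and the epithelial gene Krt8 stayed at or below 26.8 normalized counts. Other markers of further cell types were higher, with the macrophage gene Cd68 at 391 to 1551, the endothelial gene Pecam1 at 269 to 426 and the muscle gene Des at 127 to 276, and their part in the results was not tested. Genes of the mitochondrial genome took 5.3 to 5.8% of reads in the scrMo libraries under nutritional stress and 1.54 to 2.68% in the other libraries. A pseudogene with the name of its parent was listed for 48 of the 85 members. Together 154 such pseudogene entries held 2.93 to 3.25% as many reads as the members. How reads that match several places were counted is not stated, so levels of members with such copies are uncertain.

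The start sites show what the rule did not use. RefSeq start windows of 30 bases on GRCm38.p6, from 20 bases before the annotated start to 10 bases from it, were given for 61 of the 85 members. A TOP-like run was taken as 5 or more consecutive C or T, with no A or G, covering the annotated start base, which is base 21 of each window, read on the strand of the gene. It was present in 23 of the 61 members (37.7%), in 1174 of 10460 other genes (11.2%) and in 3330 of all 32851 start windows in the table (10.1%). A gene with several annotated starts counted by the start with the longest run, whereas the last share is of single windows. Among mitochondrial ribosomal proteins, which are encoded in the nucleus but serve the mitochondrial ribosome, 4 of 65 (6.15%) held one. The windows below, 5′ to 3′ with the run in capitals, belong to members whose levels are described further on. Eef1a1 delivers aminoacyl-tRNA, Eef2 moves the ribosome along the mRNA, Fau encodes a ubiquitin-like protein fused to a small subunit protein, and Rps27 and Rps27l are a pair of near-identical proteins encoded by separate genes. Rpl28, Rpl7a, Rpl15 and Rps18 encode further subunit proteins, and Rpl7l1 a relative of Rpl7.
Eef1a1, chr9:78481715-78481744, minus strand: cgtgtgctggctccgCCCTCTTCCCgaggg
Eef2, chr10:81176611-81176640, plus strand: cgacctataaaaggccgggcgttgacgtca
Fau, chr19:6057927-6057956, plus strand: ggacgtgcgcgcccccaCTTCTTCCTCTTT
Rps27, chr3:90213639-90213668, minus strand: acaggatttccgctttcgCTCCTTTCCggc
Rps27l, chr9:66946066-66946095, plus strand: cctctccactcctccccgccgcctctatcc
Rpl28, chr7:4792945-4792974, plus strand: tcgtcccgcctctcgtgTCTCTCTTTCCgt
Rps18, chr17:33955656-33955685, minus strand: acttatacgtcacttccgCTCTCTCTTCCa
Rpl7a, chr2:26910787-26910816, plus strand: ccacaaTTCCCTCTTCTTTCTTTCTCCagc
Rpl15, chr14:18270977-18271006, minus strand: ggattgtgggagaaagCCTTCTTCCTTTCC
Rpl7l1, chr17:46782647-46782676, minus strand: gcccggtgaggctgcgcaagcgcagtagct
Runs of 21 and 17 bases covered the starts of Rpl7a and Rpl15, both of the large subunit. Runs were counted past the end of the printed window, which those of Rpl15 and Fau cross. The windows of Rps27l, Rpl7l1 and Eef2 held no run at the annotated base. In Rps27l a pyrimidine-rich stretch ends just before it. Annotated starts can lie a few bases from those in use, so the absence of a run says only that these letters are not at this base.

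The members took the largest share of reads in NT cultures under nutritional stress. They made up 8.38% ± 0.26 (SD, n = 3) of the reads in log phase NT cultures and 12.9% ± 0.5 in stressed NT cultures. The shares were 9.9% ± 0.89 for scrMo and 8.59% ± 0.99 for DkkMo in log phase. Under nutritional stress they were 9.63% ± 0.25 for scrMo and 10.4% ± 0.19 for DkkMo. By library the share was 8.33, 8.66 and 8.14% in log phase NT, 10.9, 9.63 and 9.17% in log phase scrMo, and 9.70, 7.81 and 8.27% in log phase DkkMo. It was 12.6, 13.5 and 12.6% in stressed NT, 9.81, 9.35 and 9.72% in stressed scrMo, and 10.6, 10.3 and 10.2% in stressed DkkMo. The 3 stressed NT libraries lay above all others. Stressed DkkMo lay above stressed scrMo, log phase DkkMo and log phase NT, and overlapped log phase scrMo. Log phase NT lay below every group except log phase DkkMo, and the other neighbours overlapped. In log phase the libraries numbered 1 of scrMo and of DkkMo were each the highest of their group. The large subunit alone rose from 3.89% ± 0.14 to 5.8% ± 0.24 of reads between the NT groups, and the small subunit from 2.61% ± 0.081 to 4.18% ± 0.2. These are shares of a bulk sample, in which fewer cells of one kind and less RNA per cell cannot be told apart.

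**Figure D1:**
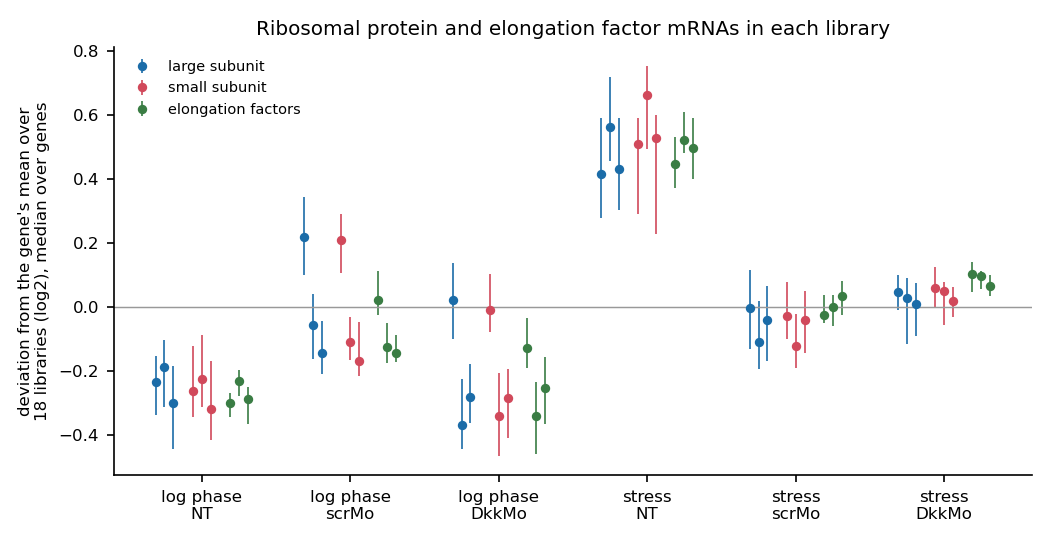
Each point is 1 library and shows the median, over the genes of a set, of the deviation of each gene from its own mean over 18 libraries (log2), with bars from the first to the third quartile of the genes. Large subunit, small subunit and elongation factors move together, highest in the 3 stressed NT libraries (medians over all 85 members of 0.46 to 0.59) and lowest in log phase NT and in 2 of the 3 log phase DkkMo libraries.

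In NT cultures, most ribosomal protein mRNAs were higher under nutritional stress than in log phase. Confluence, age of the medium and growth phase differed together between these groups and cannot be told apart. Of the 85 members, 75 passed the test as higher under stress than in log phase, against 31.5% of all genes, and 2 as lower, against 34.1% of all genes. The rise exceeded 1.5-fold for 59 members, against 8.22% of all genes, on a scale that shrinks the changes of less abundant genes. The libraries of the 2 groups did not overlap for 81 members, as for 74.6% of all genes. The median change was 0.77 over the members and -0.01 over all genes. In the large subunit 43 of 48 rose and 1 fell, with a median of 0.70. In the small subunit 26 of 31 rose and 1 fell, with a median of 0.84. Without log phase NT replicate 1 or 2, or without stressed NT replicate 1 or 3, 1 member was lower in place of 2. The 14 proliferation markers, such as Mki67 and Top2a, all fell in the same comparison, with a median of -2.02, and their part in the result was not tested. With cyclic loess scaling, which removes shifts tied to abundance, the median over members was 0.39, and with quantile scaling 0.42.

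The largest rises were those of Rpl30, Rps27 and Rpl28. Rpl30, a large subunit protein, stood at 24012, 24289 and 21521 normalized counts in log phase and at 57405, 61861 and 50539.8 under stress. The lowest stressed library stood far above the highest log phase library. Rpl30 rose by 1.27 (SE 0.09, adjusted p = 5.06e-10) on the log2 scale, 2.41-fold on that scale. Rps27, a zinc-binding small subunit protein, stood at 18144, 17790.3 and 16144 normalized counts in log phase and at 40731, 44836 and 41037 under stress. Again the groups lay far apart, and Rps27 rose by 1.27 (SE 0.10, adjusted p = 8.56e-10). Rpl28 had 28955, 30700.2 and 29242 normalized counts in log phase and 65675, 73998 and 67440.4 under stress, and rose by 1.21 (SE 0.11, adjusted p = 1.99e-08). Rps23, at the decoding centre of the small subunit, rose by 1.20 (SE 0.09, adjusted p = 9.17e-10). Rps25, which takes part in initiation on internal ribosome entry sites, rose by 1.19 (SE 0.08, adjusted p = 2.49e-10). Rpl5, which carries a ribosomal RNA into the large subunit, rose by 1.13 (SE 0.09, adjusted p = 8.38e-10). Rpl23 and Rpl26 of the large subunit and Rps12 and Rps14 of the small subunit had changes of 1.13, 1.11, 1.11 and 1.04, each past the test.

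The P stalk, which recruits the elongation factors to the large subunit, rose unevenly. Its scaffold protein Rplp0 had 91896, 95010.0 and 86821 normalized counts in log phase NT and 132586, 144516 and 135146 under stress, and rose by 0.59 (SE 0.10, adjusted p = 2.95e-05). The stalk protein Rplp1 rose by 0.64 (SE 0.11, adjusted p = 4.06e-05), and its partner Rplp2 rose by 1.02 (SE 0.11, adjusted p = 9.34e-08). Rplp2 had 30361, 31359 and 27274 normalized counts in log phase and 59420.2, 62610.0 and 59607 under stress, so that the lowest stressed library stood well above the highest log phase library. In the small subunit, Rpsa, also known as the laminin receptor, rose by 0.75 (SE 0.10, adjusted p = 3.18e-06), and Fau rose by 0.54 (SE 0.12, adjusted p = 6.64e-04). Both groups of 3 libraries were apart for each of these 5 genes. Rplp0 and Fau no longer passed with cyclic loess scaling, nor Rplp0, Rplp1 and Fau with quantile scaling.

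All 4 elongation factors rose with stress in NT cultures. Eef1a1, which brings aminoacyl-tRNA to the ribosome and was the most abundant member per kilobase, had 255781, 267353 and 259857 normalized counts in log phase and 413672, 441745 and 421147 under stress. It rose by 0.70 (SE 0.09, adjusted p = 5.46e-07), and no library of one group reached the other. Eef1b2, the nucleotide exchange subunit that recharges Eef1a1, rose by 1.17 (SE 0.08, adjusted p = 2.70e-10), the largest change of the 4. Eef1g, the scaffold of the exchange complex, rose by 0.52 (SE 0.08, adjusted p = 1.63e-05), the smallest. Eef2, the translocase, had 166431, 175413 and 166884 normalized counts in log phase and 290579, 301996 and 305841 under stress, and rose by 0.82 (SE 0.08, adjusted p = 3.06e-08). Tpt1, an abundant TOP mRNA for a translationally controlled tumour protein, rose by 0.93 (SE 0.09, adjusted p = 1.65e-08). Gas5, a noncoding RNA that hosts small nucleolar RNAs in its introns and is a TOP transcript, had 24487, 23391 and 21499 normalized counts in log phase and 35807, 40247 and 35795 under stress, and rose by 0.68 (SE 0.09, adjusted p = 1.34e-06). The stressed Gas5 libraries all lay above those of log phase. Eef1g no longer passed with cyclic loess or quantile scaling, nor Eef1a1 with cyclic loess scaling.

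The 10 members that did not rise included close paralogues of ribosomal proteins. Rps27l, which differs from Rps27 in few residues and is induced by p53 in other settings, had 2690.2, 2616 and 2537 normalized counts in log phase NT and 1667, 1871 and 1608 under stress. It fell by 0.54 (SE 0.07, adjusted p = 3.27e-06), while Rps27 rose. Rpl7l1, the relative of Rpl7, had 4018, 3978 and 3773 normalized counts in log phase and 3421, 3663 and 3507 under stress, and fell by 0.14 (SE 0.05, adjusted p = 0.0241). The fall of Rpl7l1 was the smaller of these changes and did not hold with median centring, where its change was 0.02. The call of Rpl7l1 was also lost in at least 1 fit that left out a library. Rpl7 itself rose by 0.27 (SE 0.07, adjusted p = 0.0026), but was at -0.18 with quantile and -0.16 with cyclic loess scaling. The Rpl22 pair differed from these, since Rpl22 rose by 0.60 (SE 0.07, adjusted p = 5.50e-07) and Rpl22l1 rose by 0.86 (SE 0.09, adjusted p = 4.15e-08). Of the 8 members named as paralogues or copies, 4 rose and 2 fell, with a median of 0.26. Of the other 77 members, 71 rose and 0 fell, with a median of 0.81. The copies Rpl32l, Rpl6l and Rps3a2 rose, and Rps12l1 and Rps3a3 did not pass, at 0.12 and 0.12. Changes of weakly expressed copies are shrunk on this scale, and the part of level in these medians was not tested. Their reads may be shared with the parent genes.

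The remaining members that did not pass were Rpl7a at -0.15 (SE 0.19, adjusted p = 0.506), Rpl15 at -0.12 (SE 0.08, adjusted p = 0.162), Rpl41 at 0.07 (SE 0.13, adjusted p = 0.647), Rpl10a at 0.13 (SE 0.09, adjusted p = 0.221), Rps15 at 0.13 (SE 0.12, adjusted p = 0.342) and Rps2 at 0.21 (SE 0.10, adjusted p = 0.0826). They were singled out after their values were seen. Rpl41, which encodes the shortest ribosomal protein, had 48179, 55257 and 51378 normalized counts in log phase NT and 51771, 57109 and 53547 under stress, and the 2 groups overlapped. Rpl15 had 18131, 18900.3 and 18241 normalized counts in log phase and 16368, 17778 and 16529.9 under stress, all 3 stressed libraries below those of log phase. Rpl7a and Rpl15 held the long pyrimidine runs printed above. Members with a run at the annotated start had a median change of 0.84 (n = 23) and members with a start but no run 0.74 (n = 38), as a description without a test.

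**Figure D2:**
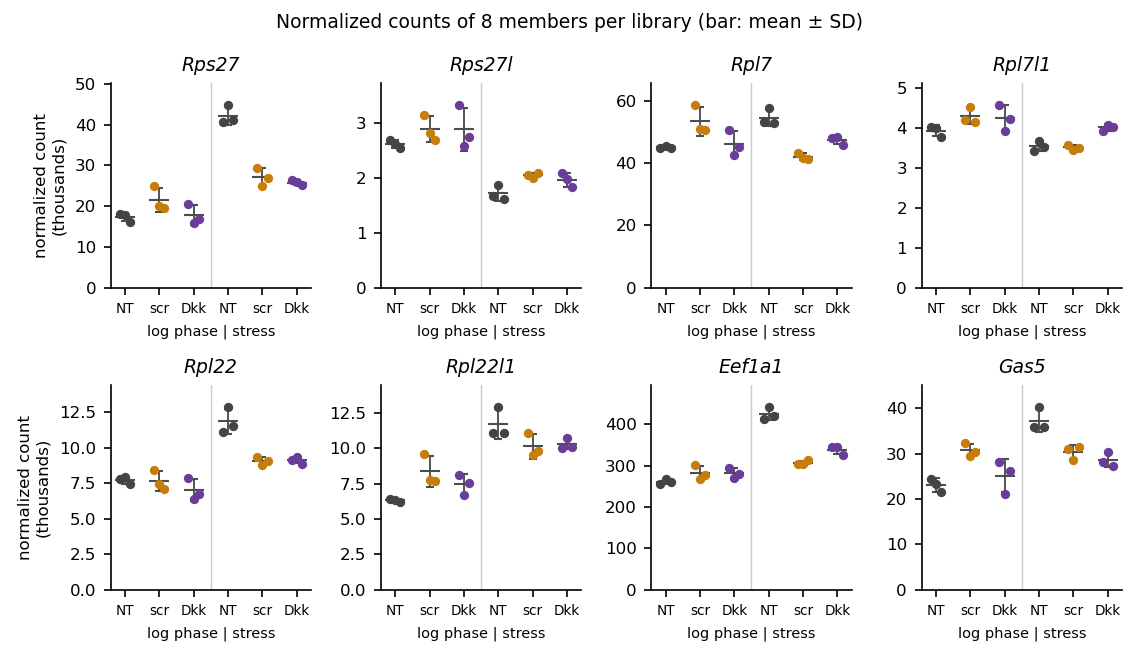
Normalized counts of 8 members in each of 18 libraries (points), with the mean and SD of the 3 libraries of a group (bars), where scr is scrMo and Dkk is DkkMo. Rps27, Eef1a1, Rpl22 and Gas5 are highest in stressed NT cultures, whereas Rps27l is lower in all stressed groups than in log phase.

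With the control morpholino most members did not rise with stress. In scrMo cultures 13 of 85 members passed as higher under stress and 23 as lower, with a median of -0.02. Over all genes 28% were higher and 30.8% lower. The libraries of the stressed and log phase groups did not overlap for 36 members, against 62.6% of all genes. By subunit, 8 of 48 large subunit members rose and 14 fell, and 4 of 31 small subunit members rose and 8 fell. The largest rises were those of Rps27 at 0.34 (SE 0.10, adjusted p = 0.00562), Rpl39 at 0.31 (SE 0.09, adjusted p = 0.00652) and Rpl26 at 0.28 (SE 0.09, adjusted p = 0.00815). Rpl41 fell most, at -0.68 (SE 0.13, adjusted p = 1.36e-04), ahead of Rpl15 at -0.62 (SE 0.08, adjusted p = 1.05e-06) and Rps2 at -0.53 (SE 0.10, adjusted p = 2.01e-04). Rpl41 and Rpl15 were the 2 members that fell over 1.5-fold, against 6.28% of all genes. Rpl41 had 79316, 58915 and 54429 normalized counts in log phase scrMo and 40008, 37521 and 40624 under stress, without overlap. Rps27l fell by 0.44 (SE 0.07, adjusted p = 4.80e-05), in the direction it took in NT cultures, and Rpl7l1 fell by 0.27 (SE 0.05, adjusted p = 2.12e-04). Rplp0 fell by 0.35 (SE 0.10, adjusted p = 0.0048), while Rplp1 and Rplp2 did not pass, at -0.22 and 0.14. Eef1b2 rose by 0.22 (SE 0.08, adjusted p = 0.0273), Eef1g fell by 0.23 (SE 0.08, adjusted p = 0.0208), and Eef1a1, Eef2 and Tpt1 were at 0.12, 0.10 and 0.12 without passing. The calls of Eef1b2, Eef1g and Rpl39 were each lost in at least 1 fit that left out a library. The count of members that rose moved with single libraries, to 21 without log phase scrMo replicate 1, 5 without replicate 2 and 4 without replicate 3 of that group. It was 3 without stressed scrMo replicate 1 and 6 without replicate 3, and the count that fell was 15 without log phase scrMo replicate 1. All 14 proliferation markers fell, with a median of -1.56, and mitochondrial RNA was higher in the stressed libraries. The part of either in the result was not tested.

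DkkMo cultures lay between these. Under stress 44 of 85 members were higher than in log phase and 2 lower, with a median of 0.24, against 30.4% higher and 35.2% lower over all genes. No member rose by more than 1.5-fold. The libraries of the stressed and log phase groups did not overlap for 41 members, against 66.8% of all genes. The large subunit gave 24 rises and 1 fall among 48, and the small subunit 16 rises and 1 fall among 31. Rpl28 rose by 0.58 (SE 0.11, adjusted p = 2.13e-04), Rpl26 rose by 0.55 (SE 0.09, adjusted p = 1.27e-05) and Rpl23 rose by 0.54 (SE 0.10, adjusted p = 6.38e-05). Rpl28 had 37423, 28050.3 and 27846 normalized counts in log phase DkkMo and 48935, 43758 and 45644 under stress, and the lowest stressed library lay above the highest of log phase. Rps27l fell by 0.49 (SE 0.07, adjusted p = 1.13e-05) and Rpl15 fell by 0.36 (SE 0.08, adjusted p = 3.84e-04). Without log phase DkkMo replicate 2, 6 members fell. Of the elongation factors Eef1a1, Eef1b2 and Eef2 rose, by 0.27, 0.45 and 0.48, and Eef1g was at 0.06 (SE 0.08, adjusted p = 0.528). Tpt1 rose by 0.27 (SE 0.09, adjusted p = 0.0105) and Gas5 was at 0.20 (SE 0.09, adjusted p = 0.0588). Eef1a1 and Tpt1 no longer passed with cyclic loess scaling, and Tpt1 was also lost in at least 1 fit that left out a library. The 14 proliferation markers fell with a median of -2.22. With cyclic loess scaling the median over members was 0.10, and with median centring 0.41, where the median of all genes itself moved to 0.15.

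**Figure D3:**
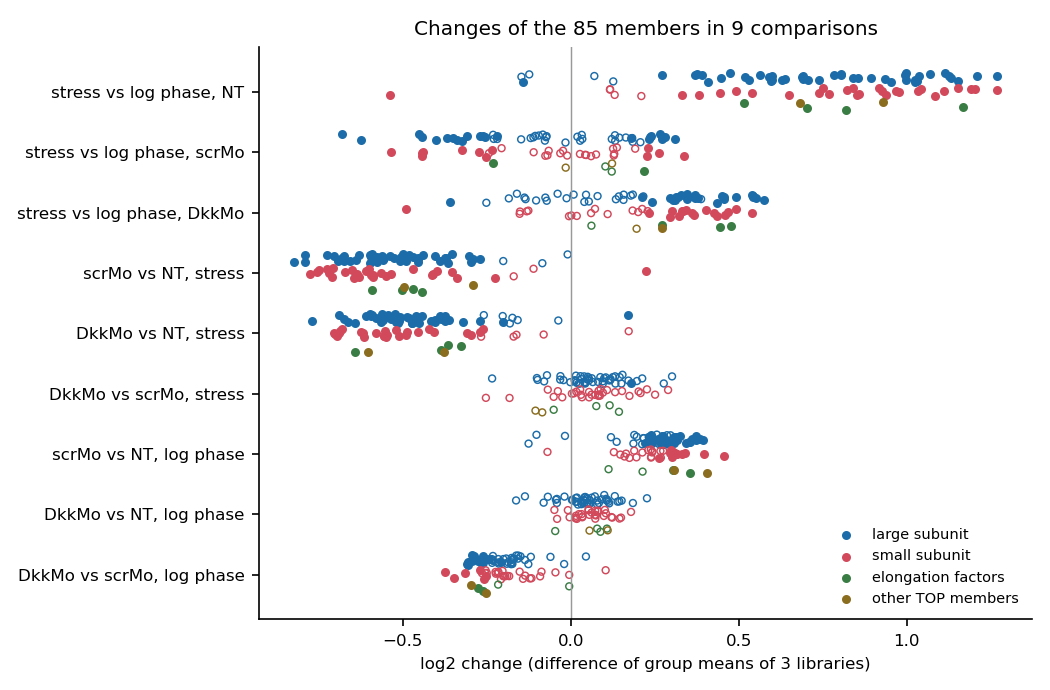
The log2 change of each of the 85 members in 9 comparisons, as the difference of the means of 3 libraries, with filled points for members that passed the test and open points for the others. The members lie to the right of 0 under stress in NT cultures, to the left in both morpholinos against NT under stress, and around 0 for DkkMo against scrMo under stress.

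Under nutritional stress both morpholino groups had lower ribosomal protein mRNA than NT cultures. These comparisons share the NT libraries. In scrMo 79 of 85 members were lower than in NT, against 24.7% of all genes, and 1 was higher, against 22.1%. The fall exceeded 1.5-fold for 36 members, against 2.54% of all genes, and the libraries of 80 members did not overlap, against 63.5%. In DkkMo 73 members were lower than in NT, against 22.7% of all genes, and 1 was higher, against 19%. The fall exceeded 1.5-fold for 20 members, against 1.54% of all genes, and 81 members did not overlap, against 59.4%. The medians were -0.56 for scrMo and -0.49 for DkkMo. In the large subunit 45 of 48 fell with scrMo and 41 with DkkMo, and in the small subunit 28 and 26 of 31. All 3 P stalk genes, all 4 elongation factors, Tpt1 and Gas5 fell with each morpholino. With cyclic loess scaling just Rplp2, Eef1b2 and, in scrMo, Rplp0 and, in DkkMo, Tpt1 passed among them. Quantile scaling lost Gas5 in both, and Rplp1, Eef1g, Eef2 and Eef1a1 in DkkMo. The Gas5 call in scrMo was also lost in at least 1 fit that left out a library. With cyclic loess scaling the medians were -0.27 for scrMo and -0.27 for DkkMo, and with quantile scaling -0.28 and -0.23. In the same libraries the proliferation markers gave 1 of 14 higher in scrMo and 2 of 14 higher in DkkMo than in NT, with 0 and 0 lower. Of the 28 genes of the mitochondrial genome, 25 were higher and 2 lower in scrMo than in NT, with a median of 1.37 and mt-Rnr2 at 4.50. In DkkMo 15 were higher and 6 lower, with a median of 0.28. The part of either group of genes in the result was not tested.

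Rpl28 and Rpl36 of the large subunit were among the largest falls with scrMo. Rpl36 had 22120.3, 23887 and 22754 normalized counts in stressed NT, 13350.4, 12244 and 13826 in stressed scrMo and 16178, 15134 and 17490.3 in stressed DkkMo. Its 3 groups did not overlap, with scrMo lowest. Rpl36 fell by 0.79 (SE 0.12, adjusted p = 3.81e-05) with scrMo and fell by 0.49 (SE 0.12, adjusted p = 0.00367) with DkkMo. Rpl28 fell by 0.79 (SE 0.11, adjusted p = 1.79e-05) with scrMo and fell by 0.58 (SE 0.11, adjusted p = 5.45e-04) with DkkMo. Rpl17 had the largest fitted fall, at -0.82 (SE 0.23, adjusted p = 0.00717) with scrMo and -0.77 (SE 0.23, adjusted p = 0.0127) with DkkMo. Its libraries scattered widely, with 37544, 28188 and 27746 normalized counts in NT and 16993, 24807 and 12265 in scrMo under stress. Both Rpl17 calls were lost in at least 1 fit that left out a library. Rps27 fell by 0.70 (SE 0.10, adjusted p = 1.43e-05) and Rpsa fell by 0.70 (SE 0.10, adjusted p = 3.35e-05) with DkkMo. Rpsa had 79801, 89258 and 81436 normalized counts in stressed NT and 53667, 49967 and 49916 in stressed DkkMo, without overlap. Eef1a1 fell by 0.47 (SE 0.09, adjusted p = 1.78e-04) with scrMo and fell by 0.33 (SE 0.09, adjusted p = 0.00474) with DkkMo. With cyclic loess scaling Eef1a1 did not fall, at 0.01 with scrMo and 0.07 with DkkMo. The exceptions were again paralogues. Rps27l was higher in scrMo than in NT at 0.22 (SE 0.07, adjusted p = 0.0198), and Rpl7l1 was higher in DkkMo than in NT at 0.17 (SE 0.05, adjusted p = 0.0149). Either call was lost without 1 library: the count of members higher in scrMo was 0 without NT replicate 1 or 3 or without scrMo replicate 1 or 3, and that in DkkMo 0 without NT replicate 1 or DkkMo replicate 2. It was 2 without NT replicate 2.

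In the direct comparison of DkkMo with scrMo under stress, few members passed with the spread shared by all 18 libraries. Rpl7l1 was the 1 member higher in DkkMo and 0 were lower, against 9.97% and 10.9% of all genes. At an unadjusted p below 0.05 the counts were 9 higher and 1 lower, and limma voom on the recovered reads called 1 higher and 0 lower. Rpl7l1 had 3573, 3442 and 3496 normalized counts in scrMo and 3917, 4069.6 and 4023 in DkkMo, without overlap, and a change of 0.18 (SE 0.05, adjusted p = 0.0205). The call was lost without stressed DkkMo replicate 2 or 3 and without scrMo replicate 2 or 3. Without scrMo replicate 2, 1 member was lower. Of the members 67 lay above 0 and 18 below, and the libraries of 37 did not overlap, against 44.9% of all genes. The median over members was 0.06 and the range -0.25 (Rps27a) to 0.30 (Rpl36). Rpl36 at 0.30 (SE 0.12, adjusted p = 0.091) and Rpl39 at -0.23 (SE 0.09, adjusted p = 0.0755) lay near its ends. With only these groups in the model 18 members were higher and 4 lower. The SD of the member median between libraries was 0.055 in stressed scrMo and 0.015 in stressed DkkMo. It was 0.19 in each log phase morpholino group, which the shared spread includes. Of 28 genes of the mitochondrial genome, 24 were lower in DkkMo than in scrMo in this comparison, with a median of -1.25. Their part in the result was not tested.

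In log phase the order of the groups was different. In scrMo 44 of 85 members were higher than in NT, against 11.8% of all genes, and 0 were lower, against 14.6%. At an unadjusted p below 0.05 these were 71 and 0, and with limma voom 50 and 0. The median was 0.27, and 65 members did not overlap, against 37.8% of all genes. In the large subunit 27 of 48 were higher and in the small subunit 13 of 31. Rps12, a small subunit protein, had 28893, 29295 and 25267 normalized counts in NT and 45299, 37052 and 33177 in scrMo, with replicate 1 of scrMo far above the others. It was higher in scrMo at 0.46 (SE 0.12, adjusted p = 0.00669), ahead of Gas5 at 0.41 (SE 0.09, adjusted p = 0.00205) and Rps25 at 0.40 (SE 0.08, adjusted p = 0.00153). All 3 P stalk genes were higher, as were Tpt1 and, of the elongation factors, Eef1b2 and Eef1g, at 0.36 and 0.30. The P stalk genes and Tpt1 no longer passed here with cyclic loess scaling, and each was lost in at least 1 fit that left out a library. The count of 44 became 70 with median centring, 27 with quantile scaling, 17 with cyclic loess scaling and 14 with just these groups in the model. The count of members higher rested on single libraries: it was 9 without scrMo replicate 1, 67 without scrMo replicate 3, 28 without NT replicate 2 and 9 without NT replicate 3. Proliferation markers were lower in scrMo than in NT for 13 of 14, with a median of -0.42. Of the 28 genes of the mitochondrial genome 16 were higher and 7 lower, with mt-Rnr2 at 2.19. The part of either in the result was not tested.

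DkkMo did not differ detectably from NT in log phase. None of the 85 members passed, with 0 higher and 0 lower, against 5.36% and 4.46% of all genes. At an unadjusted p below 0.05 the counts were 1 and 0, and with limma voom 0 and 0. The median was 0.05, with a range of -0.16 (Rpl17) to 0.23 (Rpl22l1). For 4 members the libraries of DkkMo and NT did not overlap, against 24.1% of all genes. Without DkkMo replicate 1, 1 member was lower, and without DkkMo replicate 2, 1 was higher. Against scrMo, 21 members were lower in DkkMo, against 9.2% of all genes, and 0 were higher, against 14.3%. At an unadjusted p below 0.05 these were 47 and 0, and with limma voom 22 and 0. The median was -0.21, and for 4 members the libraries did not overlap, against 26.9% of all genes. Rps12 had 36331, 25801 and 27036 normalized counts in DkkMo, where replicate 1 reached the range of scrMo, and a change of -0.38 (SE 0.12, adjusted p = 0.0244). Rps18 was lower at -0.35 (SE 0.09, adjusted p = 0.00824) and Rps14 at -0.32 (SE 0.10, adjusted p = 0.0306). Rps18 had 54035, 46341 and 43588 normalized counts in scrMo and 44074, 34056 and 34984 in DkkMo, and the groups overlapped through DkkMo replicate 1. Rplp2, Eef1b2, Eef2, Tpt1 and Gas5 also passed as lower, of which Rplp2, Eef2 and Tpt1 no longer did with cyclic loess scaling, nor did Rps14.

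Each of the 6 libraries could change this count of 21. It was 68, 1 and 4 without DkkMo replicates 1, 2 and 3, and 3, 10 and 43 without scrMo replicates 1, 2 and 3. Without both libraries numbered 1, an alternative chosen after seeing the data, 56 members were lower in DkkMo. With only these groups in the model 0 members passed, and with median centring 50. The reported fit shares its spread with groups whose libraries lay closer together, such as stressed DkkMo. None of the 11 members that passed among the 34 named for description passed in every fit that left out a library. Proliferation markers were higher in DkkMo than in scrMo for 14 of 14, with a median of 0.62. Their part in the result was not tested.

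The dependence of the morpholino differences on the culture condition was tested as an interaction. The scrMo minus NT difference was lower under stress than in log phase for 79 of 85 members, against 23.2% of all genes, and higher for 0, against 22.8%, with a median of -0.81. The median difference itself was 0.27 in log phase and -0.56 under stress. The shift exceeded 1.5-fold for 70 members, against 5.37% of all genes. The DkkMo minus NT difference was lower for 68 members, against 16.8% of all genes, and higher for 0, against 12.3%, with a median of -0.53. It exceeded 1.5-fold for 34 members, against 2.38%. Its median difference was 0.05 in log phase and -0.49 under stress. Quantile scaling gave 26 lower members and a median of -0.22 for DkkMo, and cyclic loess scaling 40 and -0.27. For scrMo the medians became -0.45 and -0.42. Of 28 genes of the mitochondrial genome 21 had a higher scrMo minus NT difference under stress and 2 a lower one, and their part in the result was not tested. At an unadjusted p below 0.05 the counts of members with a higher difference were 0 for scrMo and 0 for DkkMo, and with limma voom 0 and 0. Rps12 had the largest scrMo interaction at -1.18 (SE 0.16, adjusted p = 1.30e-05), then Rpl28 at -1.08 (SE 0.16, adjusted p = 2.86e-05) and Rpl36 at -1.08 (SE 0.17, adjusted p = 5.96e-05). Rpl5 had the largest DkkMo interaction against NT at -0.79 (SE 0.12, adjusted p = 1.33e-04), with Rps23 at -0.78 (SE 0.13, adjusted p = 2.71e-04) and Rps12 at -0.77 (SE 0.16, adjusted p = 0.00199). The DkkMo minus scrMo difference was higher under stress for 7 members, against 8.93% of all genes, and lower for 0, against 13.2%. Unadjusted counts were 42 and 0, and those of limma voom 9 and 0. It was led by Rpl36 at 0.57 (SE 0.17, adjusted p = 0.0241), Rpl13 at 0.49 (SE 0.16, adjusted p = 0.0366) and Rps18 at 0.43 (SE 0.13, adjusted p = 0.0199). This count of 7 became 58, 2 and 3 without log phase DkkMo replicates 1, 2 and 3, and 30 without log phase scrMo replicate 3. It was 4 and 2 without stressed DkkMo replicates 1 and 3, and 2 and 4 without stressed scrMo replicates 2 and 3. The calls of Rpl36, Rpl13 and Rps18 were each lost in at least 1 fit that left out a library. Across the 85 members this interaction went with transcript GC content (Pearson's r = 0.45) and mean level (r = 0.38), as a description. For transcript length r was 0.06. Changes at low levels are shrunk on this scale, and the part of that in the relation with level was not tested. With the GC trend removed from each library 22 members passed.

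Other genes of the translation machinery were tested in the same comparison of stressed with log phase NT cultures, in which 31.5% of all genes rose and 34.1% fell. Whether their shares differed from those of the members was not tested. Of the initiation factors 11 of 36 rose and 9 fell, with a median of 0.03. Eif3f and Eif1, both of the preinitiation complex, were at 0.94 (SE 0.10, adjusted p = 1.06e-07) and 0.91 (SE 0.08, adjusted p = 1.26e-08), and Eif5a, which helps with difficult peptide bonds, at -0.85 (SE 0.09, adjusted p = 4.06e-08). Rack1, a scaffold on the small subunit that the rule did not name, was at 1.00 (SE 0.09, adjusted p = 6.12e-09), and Eef1a2, the muscle and neuron form of Eef1a1, at -1.22 (SE 0.10, adjusted p = 3.02e-09). Of 8 small nucleolar RNA host genes, Gas5 included, 6 rose and 1 fell, with Epb41l4aos at 1.23 (SE 0.10, adjusted p = 2.50e-09) and Snhg16 at -0.68 (SE 0.09, adjusted p = 2.14e-06). Among 9 further TOP mRNAs 5 rose and 2 fell, with the chaperonin subunit Cct4 at 0.83 (SE 0.05, adjusted p = 1.19e-10) and the intermediate filament gene Vim at -1.05 (SE 0.08, adjusted p = 1.74e-09). Of the ribosome biogenesis factors 14 of 54 rose and 15 fell. Among them Sbds, which acts in the maturation of the large subunit, was at 0.66 (SE 0.05, adjusted p = 2.23e-10) and the nucleolar protein Nop58 at -0.67 (SE 0.06, adjusted p = 2.82e-09). RNA polymerase I subunits and factors gave 6 rises and 4 falls among 14, and regulators of mTORC1 and TOP mRNAs 9 and 6 among 18. Of the mitochondrial ribosomal proteins 18 of 73 rose and 29 fell, of nuclear respiratory chain subunits 9 of 77 rose and 42 fell, and of proteasome subunits 9 of 36 rose and 15 fell. Of the 154 ribosomal protein pseudogene entries 105 rose and 1 fell, with a median of 0.26. Changes of entries with few reads are shrunk on this scale.

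The biogenesis factors mostly fell with stress in both morpholino groups. In scrMo 0 of 54 rose with stress and 49 fell, with a median of -0.39, and in DkkMo 8 rose and 30 fell, against 30.8% and 35.2% of all genes that fell. In log phase 33 were higher in scrMo than in NT, against 11.8% of all genes, led by Nhp2 of the box H/ACA particles at 0.47 (SE 0.10, adjusted p = 0.00235). Of the 54, 40 were lower in DkkMo than in scrMo in log phase, against 9.2% of all genes.

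**Figure D4:**
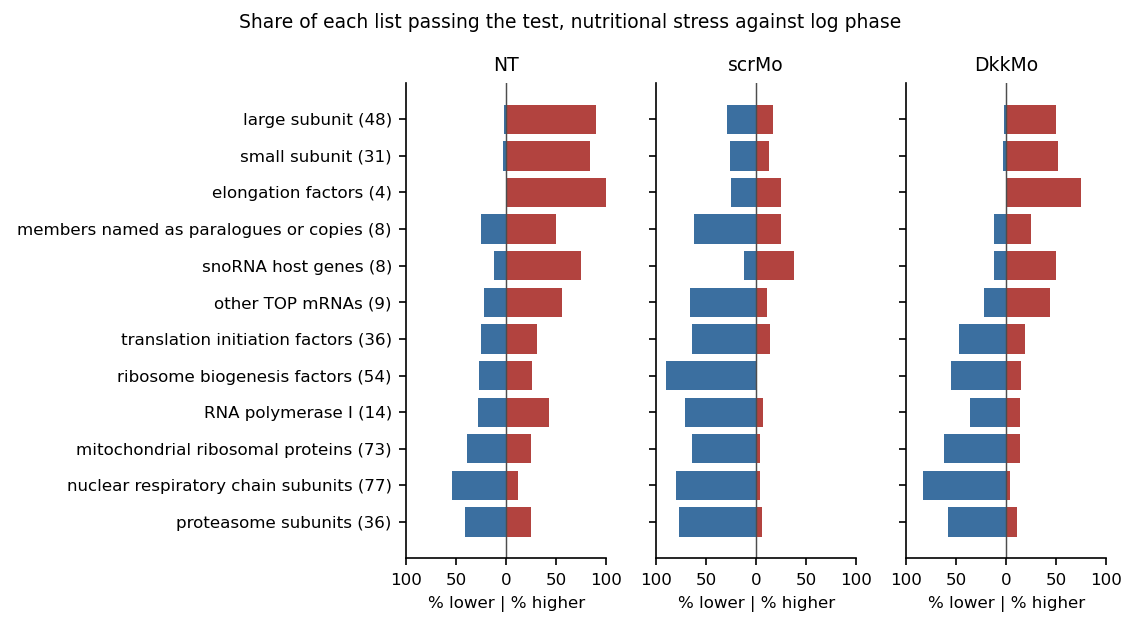
For 12 gene lists (number of genes tested in brackets), the percentage of genes that passed the test as lower (blue, left) or higher (red, right) under nutritional stress than in log phase, in NT, scrMo and DkkMo cultures. In NT cultures the bars of the large and small subunit and the elongation factors point almost wholly to the right, and those of the respiratory chain and proteasome point mainly to the left.

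Per kilobase of annotated transcript the members spanned a wide range of levels. In log phase NT the median normalized count per kilobase was 26550.4 for the large and 33649 for the small subunit, and in stressed NT 45986 and 58696. Eef1a1 was the most abundant, at 145483 per kilobase in log phase NT and 237191 under stress. Rpl41 followed at 88668 and Rplp1 at 85099 in log phase NT, and under stress Rplp1 at 132704 stood above Rpl41 at 93028. Rps27 stood at 50318 per kilobase and Rps27l at 5239 in log phase NT, and Rpl7 at 38829.9 and Rpl7l1 at 1505. Rpl22l1, at 11433, lay above Rpl22, at 3769.6. The Rpl22 transcript used for scaling is 2051 bases long and that of Rpl22l1 552, so that the order rests on those annotated lengths. The transcripts of members had a median length of 878 bases, against 2484 for the other genes tested. Across the 85 members the change with stress in NT cultures went with neither length (Pearson's r = 0.01) nor GC content (r = -0.03), and with mean level at r = 0.39. These are descriptions across genes of the same libraries, and genes are not independent replicates. The scale shrinks changes at low levels, and the part of that in the relation with level was not tested.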

How the data were processed

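Poly(A)-selected RNA of cultured cells was sequenced in 18 libraries (6 groups of 3). Per the labels and the submitters' processing notes, the authors aligned reads with HISAT2 2.1.0 to GRCm38, counted them per gene with featureCounts of Subread 2.0.0 and normalised them with DESeq2. The authors deposited the culture values as variance-stabilised log2 values, of which the lowest, 7.20, stands for no reads. Strand handling and the treatment of reads with several matches are not given in the sources used here. The transformation was reversed to whole reads, and all low values came out whole within 0.1 of a read, up to 300 reads. These recovered reads, divided by the deposited size factors, are the normalized counts given.

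Differences were tested on the deposited log2 values with limma 3.58.1 in R 4.3.3 (one mean per group, trend of the variance on the mean, all 18 libraries in the model) and adjusted with the Benjamini-Hochberg method over 16562 genes. Of 16576 genes listed, 14 whose values spread over more than 6 within a group were set aside. The filter on low values, which asked for a value above the lowest in at least 3 libraries, removed 0. No test was run over the members as a set. With 3 libraries against 3, a permutation test of a single value cannot give a two-sided p below 0.1, so p-values come from limma. The depth was 25875666 to 44779668 reads per library.

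The members and gene lists were chosen with earlier results of these data known. Named members are the P stalk genes, Rpsa, Fau, the elongation factors, Tpt1, Gas5 and the paralogue pairs, plus, per comparison, the top 3 risers and top 3 fallers among members that passed. Outside the members they are the 2 largest rises and falls that passed in a list. Start windows came from RefSeq on GRCm38.p6. Transcript lengths and GC content came from a separate transcript annotation. Tables used Python 3.11.15 with pandas 2.3.3 and NumPy 2.4.6. Tumour values, deposited separately, were not used here.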

Additional observations from a re-analysis of the deposited data

Results flagged for a closer look

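The difference between a morpholino and NT cultures depended on the culture condition for most members. An interaction test in limma found a lower scrMo minus NT difference under nutritional stress than in log phase for 79 of 85 members, against 23.2% of all genes, and a higher one for 0. For DkkMo minus NT it was lower for 68, against 16.8% of all genes, and higher for 0. With quantile and cyclic loess scaling the 68 became 26 and 40. The DkkMo minus scrMo difference was higher under stress for 7 members and lower for 0, and 7 of 85 is near the 8.93% of all genes. This count lay between 2 and 58 when single libraries were left out. All 3 tests use the same 18 libraries, and the first and second share the NT libraries.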

How the results depend on the processing

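All values below count members that passed or give the median over the 85 members, and an interaction is a difference under stress minus that in log phase. No filter on low values, log2 of the normalized count plus 1, and limma voom on the recovered reads, the last chosen after seeing the data, left all 36 values within their limits. With only genes above the median level, higher members numbered 14 (DkkMo vs scrMo, interaction). When each model held just its own groups, higher members numbered 18 (DkkMo vs scrMo, stress), 2 (DkkMo vs NT, stress), 14 (scrMo vs NT, log) and 1 (DkkMo vs scrMo, interaction). There, lower members numbered 0 (DkkMo vs scrMo, log) and 4 (DkkMo vs scrMo, stress). Without the variance trend, higher members numbered 2 (DkkMo vs scrMo, stress) and 16 (DkkMo vs scrMo, interaction). With each library centred on its median, higher members numbered 3 (DkkMo vs scrMo, stress), 70 (scrMo vs NT, log), 0 (scrMo vs NT, stress) and 48 (DkkMo vs scrMo, interaction). There, lower members numbered 50 (DkkMo vs scrMo, log), 1 (stress vs log, NT) and 15 (stress vs log, scrMo). There, the median change was 0.93 (stress vs log, NT) and 0.41 (stress vs log, DkkMo). With quantile scaling, higher members numbered 11 (DkkMo vs scrMo, stress), 1 (DkkMo vs NT, log), 3 (DkkMo vs NT, stress), 27 (scrMo vs NT, log), 27 (DkkMo vs scrMo, interaction) and 1 (DkkMo vs NT, interaction). There, lower members numbered 7 (stress vs log, NT), 7 (stress vs log, DkkMo) and 26 (DkkMo vs NT, interaction). There, the median change was -0.23 (DkkMo vs NT, stress), -0.28 (scrMo vs NT, stress), 0.42 (stress vs log, NT), -0.22 (DkkMo vs NT, interaction) and -0.45 (scrMo vs NT, interaction). With cyclic loess scaling, higher members numbered 2 (DkkMo vs scrMo, stress), 2 (DkkMo vs NT, stress), 17 (scrMo vs NT, log), 22 (stress vs log, scrMo) and 3 (DkkMo vs scrMo, interaction). There, lower members numbered 7 (DkkMo vs scrMo, log), 2 (DkkMo vs scrMo, stress), 7 (stress vs log, NT), 10 (stress vs log, DkkMo) and 40 (DkkMo vs NT, interaction). There, the median change was -0.27 (DkkMo vs NT, stress), -0.27 (scrMo vs NT, stress), 0.39 (stress vs log, NT), 0.10 (stress vs log, DkkMo), 0.13 (DkkMo vs scrMo, interaction), -0.27 (DkkMo vs NT, interaction) and -0.42 (scrMo vs NT, interaction). With a length trend removed, higher members numbered 2 (DkkMo vs scrMo, stress), 2 (DkkMo vs NT, stress), 22 (stress vs log, scrMo) and 23 (DkkMo vs scrMo, interaction). There, lower members numbered 1 (DkkMo vs scrMo, stress) and 1 (stress vs log, NT). With a GC trend removed, higher members numbered 5 (DkkMo vs scrMo, stress) and 22 (DkkMo vs scrMo, interaction). Without both log phase morpholino libraries numbered 1, higher members numbered 31 (stress vs log, scrMo) and 54 (DkkMo vs scrMo, interaction). There, lower members numbered 56 (DkkMo vs scrMo, log) and 2 (DkkMo vs NT, log). The last 2 of these settings were chosen after seeing the data. The planned edgeR and DESeq2 alternatives were not run, and limma voom on the recovered reads was run in their place. The cause of these shifts was not tested.

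The sign of single changes was checked only for the 34 members named for description. A turn is listed only where the change passed in the reported or the alternative fit, and other turns are not listed. With median centring Rpl7l1 turned to 0.017 (stress vs log, NT). With quantile scaling Rpl7 turned to 0.076 and Rps18 to 0.082 (DkkMo vs NT, stress), and Rps18 to 0.018 (scrMo vs NT, stress). There, Rpl7 turned to -0.18, Rpl41 to -0.40 and Rps18 to -0.14 (stress vs log, NT). There, Eef1a1 turned to -0.53, Eef2 to -0.71 and Tpt1 to -0.21 (stress vs log, scrMo). With cyclic loess scaling Eef1a1 turned to 0.072 and Rpl7 to 0.067 (DkkMo vs NT, stress), and Eef1a1 to 0.0096 (scrMo vs NT, stress). There, Rpl7 turned to -0.16, Rpl41 to -0.37 and Rps18 to -0.085 (stress vs log, NT), and Rplp0 to -0.17 (stress vs log, DkkMo). Among the interactions Eef1a1 turned to 0.037 and Eef2 to 0.088 (DkkMo vs NT), and Eef1a1 to 0.17 (scrMo vs NT). Of these changes, Rpl41 (stress vs log, NT), Eef1a1 (stress vs log, scrMo), Eef2 (stress vs log, scrMo), Tpt1 (stress vs log, scrMo) and Rplp0 (stress vs log, DkkMo) had not passed in the reported fit, and the others had. With quantile scaling the change of Eef1a1 between DkkMo and NT under stress was 0.

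When single libraries were left out, the number of higher members ran from 0 to 1 (DkkMo vs scrMo, stress), from 0 to 1 (DkkMo vs NT, log), from 0 to 2 (DkkMo vs NT, stress), from 9 to 67 (scrMo vs NT, log), from 0 to 1 (scrMo vs NT, stress), from 74 to 76 (stress vs log, NT), from 3 to 21 (stress vs log, scrMo), from 34 to 58 (stress vs log, DkkMo) and from 2 to 58 (DkkMo vs scrMo, interaction). In the same fits the number of lower members ran from 1 to 68 (DkkMo vs scrMo, log), from 0 to 1 (DkkMo vs scrMo, stress), from 0 to 1 (DkkMo vs NT, log), from 65 to 72 (DkkMo vs NT, stress), from 75 to 80 (scrMo vs NT, stress), from 1 to 2 (stress vs log, NT), from 15 to 29 (stress vs log, scrMo), from 2 to 6 (stress vs log, DkkMo), from 53 to 75 (DkkMo vs NT, interaction) and from 79 to 80 (scrMo vs NT, interaction). In the same fits the median change ran from -0.32 to -0.10 (DkkMo vs scrMo, log), from 0.04 to 0.09 (DkkMo vs scrMo, stress), from -0.05 to 0.13 (DkkMo vs NT, log), from -0.53 to -0.46 (DkkMo vs NT, stress), from 0.17 to 0.35 (scrMo vs NT, log), from -0.59 to -0.51 (scrMo vs NT, stress), from 0.71 to 0.80 (stress vs log, NT), from -0.09 to 0.09 (stress vs log, scrMo), from 0.18 to 0.34 (stress vs log, DkkMo), from 0.18 to 0.38 (DkkMo vs scrMo, interaction), from -0.61 to -0.42 (DkkMo vs NT, interaction) and from -0.87 to -0.71 (scrMo vs NT, interaction).

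The reported fit did not pair libraries by replicate number. Deviations from the group means were correlated between libraries of different groups. In log phase same-numbered libraries correlated from -0.05 to 0.62, above 0.1 in 5 of 9 pairs. Differently numbered ones correlated from -0.68 to 0.30, above 0.1 in 4 of 18 pairs. Between log phase DkkMo and scrMo the libraries numbered 1, 2 and 3 correlated at 0.62, -0.05 and 0.57. Such shared spread between these groups was left out of the reported fit. Under stress same-numbered libraries correlated from -0.06 to 0.01. With a replicate block higher members numbered 2 (DkkMo vs scrMo, stress) and 20 (DkkMo vs scrMo, interaction). The other 19 of 21 values of the block kept their limits. The block could not be fitted for comparisons that include the stressed NT cultures, whose titles repeat a number.

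All members had reads in every library. Levels of members with pseudogene copies are uncertain, every change is relative to the scaling of the libraries, and 3 libraries a group limit the precision of small differences.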
